A study of Mus musculus with 6 samples.

Results

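Imprinted genes of the mouse were examined in cultured podocytes, the epithelial cells of the kidney glomerulus whose foot processes form the filtration barrier. The 50 genes were taken from a list of established imprinted genes, and 43 of them had an array probe set naming that gene alone. They were grouped by imprinted domain and by the parental copy that is known to be expressed, which is the paternal copy for 25 genes, the maternal copy for 24 and a transcript-dependent copy for Gnas. H19, Meg3, Rtl1, Rian, Mirg and Snrpn (6 genes) were read only by probe sets that also name other genes, and Zrsr1 (1 gene) was not analysed here, so no value is given for these 7. Where a gene has several probe sets, the brightest over the 6 arrays is taken. All 43 genes measured had 1 probe set each, so that brightness decided no choice of probe set.

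Total RNA came from conditionally immortalized mouse podocytes, which divide in permissive culture and stop when it ends. The cells had differentiated on type I collagen for 10 days. The cells with knockout of both Nck1 and Nck2 and the wildtype cells were each read on 3 Affymetrix arrays, 6 in all. Both lines are described as conditionally immortalized and were cultured alike, and the labels do not say that they share an origin. The sex-linked transcripts Xist and Uty, given below, had the pattern of female cells in wildtype and of male cells in knockout. The deletion strategy, the number of clones behind a line and the immortalizing agent are not stated in the labels. The 3 arrays of a group are described as independent replicates of a line, so the p-values measure the spread between these arrays, and their number limits the precision.

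Genomic imprinting is the expression of a gene from only the copy inherited from the mother or only the copy inherited from the father. DNA methylation set down in the egg or the sperm at an imprint control region marks the copies, and genes of a domain often share such a region. Many imprinted genes act in fetal growth, the placenta and the brain, and many are turned down in differentiated tissue after birth. The array reads the sum of both copies. The parental copy named beside each gene is background from mouse tissues and was not measured in these cells.

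The 3 listed genes of the Peg3 domain on chromosome 7, Peg3, Usp29 and Zim1, were all higher in knockout cells, and they had the largest differences of the 43. Peg3, which encodes a zinc finger protein made from the paternal copy, and Usp29, which encodes a ubiquitin-specific protease from the same copy, are transcribed in opposite directions from a shared promoter region at the domain's imprint control region. Zim1 encodes another zinc finger protein, lies next to Peg3 and is known to be expressed from the maternal copy. The promoter windows of these 3 genes are given because the genes moved together while belonging to different parental copies. Each window runs from 250 bases before to 50 bases after the RefSeq transcript start in build GRCm38.p6, written 5′ to 3′ on the gene's own strand. CG dinucleotides, the sites at which imprint methylation is placed, are in capitals. The Peg3 window is chr7:6730370-6730669 on the minus strand, the Usp29 window is chr7:6730333-6730632 on the plus strand and the Zim1 window is chr7:6696383-6696682 on the minus strand.
Peg3: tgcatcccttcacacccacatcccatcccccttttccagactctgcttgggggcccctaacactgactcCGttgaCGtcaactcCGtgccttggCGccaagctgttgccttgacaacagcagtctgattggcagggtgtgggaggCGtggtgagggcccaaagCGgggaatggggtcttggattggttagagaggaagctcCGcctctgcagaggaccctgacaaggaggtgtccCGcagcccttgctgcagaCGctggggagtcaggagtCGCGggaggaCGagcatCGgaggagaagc
Usp29: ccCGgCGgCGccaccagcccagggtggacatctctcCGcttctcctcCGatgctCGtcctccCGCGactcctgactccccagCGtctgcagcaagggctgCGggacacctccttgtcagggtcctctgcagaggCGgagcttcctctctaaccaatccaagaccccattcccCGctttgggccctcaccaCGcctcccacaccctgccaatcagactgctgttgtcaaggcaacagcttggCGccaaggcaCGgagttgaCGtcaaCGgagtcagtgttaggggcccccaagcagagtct
Zim1: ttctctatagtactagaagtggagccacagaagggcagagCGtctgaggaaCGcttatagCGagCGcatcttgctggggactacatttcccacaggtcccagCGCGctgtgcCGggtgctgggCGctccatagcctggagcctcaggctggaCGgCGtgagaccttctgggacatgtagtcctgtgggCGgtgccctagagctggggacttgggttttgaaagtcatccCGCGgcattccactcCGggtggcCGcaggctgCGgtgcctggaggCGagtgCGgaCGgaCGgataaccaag

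The Peg3 and Usp29 windows share 263 bases, which read the same on opposite strands. The Peg3 window holds 13 CG dinucleotides, the Usp29 window 17 and the Zim1 window 20. Of 32851 RefSeq promoter windows of this length, 37.9% hold at least as many as the Peg3 window, 31.4% at least as many as the Usp29 window and 26.5% at least as many as the Zim1 window. The median over all windows is 7, with quartiles of 3 and 20. The cyclic AMP response element TGACGTCA, searched after the sequences had been seen and read on both strands, occurs in the shared stretch and so in both the Peg3 and the Usp29 window, and not in the Zim1 window. It occurs in 1.79% of all windows. The CCAAT box, also read on both strands, occurs at 2 places in the shared stretch, against 11.7% of all windows with at least 2, and at 0 places in the Zim1 window. The core ATGGCG of the YY1 motif, a factor known to bind the control region of this domain, was found on neither strand of the 3 windows, and 8.93% of all windows hold it. The TATA motif TATAAA was also found in none of the 3, against 13.6% of all windows. These matches describe letters in a window, not bound sites. The windows end 50 bases after the start, so the control region outside them was not searched.

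Peg3 had log2 intensities of 12.70, 12.71 and 12.67 in knockout cells, against 9.93, 10.14 and 10.09 in wildtype cells. Every knockout array lay far above every wildtype array, and both groups were well above the array's background. The mean was 12.69 ± 0.02 in knockout and 10.05 ± 0.11 in wildtype cells (SD, n = 3 each). The log2 fold change was 2.64 (SE 0.06, 95% interval 2.48 to 2.79, limma adjusted p = 7.85e-06), which is 6.23-fold.

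Usp29 had log2 intensities of 8.36, 8.46 and 8.48 in knockout cells, against 6.58, 6.24 and 6.33 in wildtype cells. The groups lay apart, and the wildtype arrays were within the background range of the array, meaning at or below 7.78, the highest mean among its 23 background probe sets. The log2 fold change was 2.05 (SE 0.09, 95% interval 1.83 to 2.28, limma adjusted p = 6.96e-05), or 4.15-fold.

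Zim1 had log2 intensities of 10.36, 10.56 and 10.80 in knockout cells, against 6.99, 7.17 and 7.12 in wildtype cells. All knockout arrays were bright and all wildtype arrays within the background range. Its log2 fold change of 3.48 (SE 0.12, 95% interval 3.20 to 3.76, limma adjusted p = 2.08e-05), or 11.2-fold, was the largest of the 43. The 3 calls held under every alternative fit that tested them, with log2 fold changes of 2.58 to 2.68 for Peg3, 1.98 to 2.15 for Usp29 and 3.37 to 3.59 for Zim1.

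The genes beside these 3 were too dim to show where the difference ends. The 3 nearest measured protein-coding genes on each side (Olfr1348, Olfr1349 and Olfr1350 before it, Aurkc, Zfp954 and Zfp773 after it) had log2 differences of -0.07 to 0.11, none past the test, and all 6 were within the background range in both groups. Zim2 and Zim3, a further pair of genes of the same domain, had log2 differences of 0.03 (limma adjusted p = 0.869) and 0.01 (limma adjusted p = 0.951). Both were again within the background range, and their sign turned under some of the alternatives. The median difference over the 900 protein-coding genes of chromosome 7 brighter than the median of all genes was 0.02. That limit lies within the background range.

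**Figure D1:**
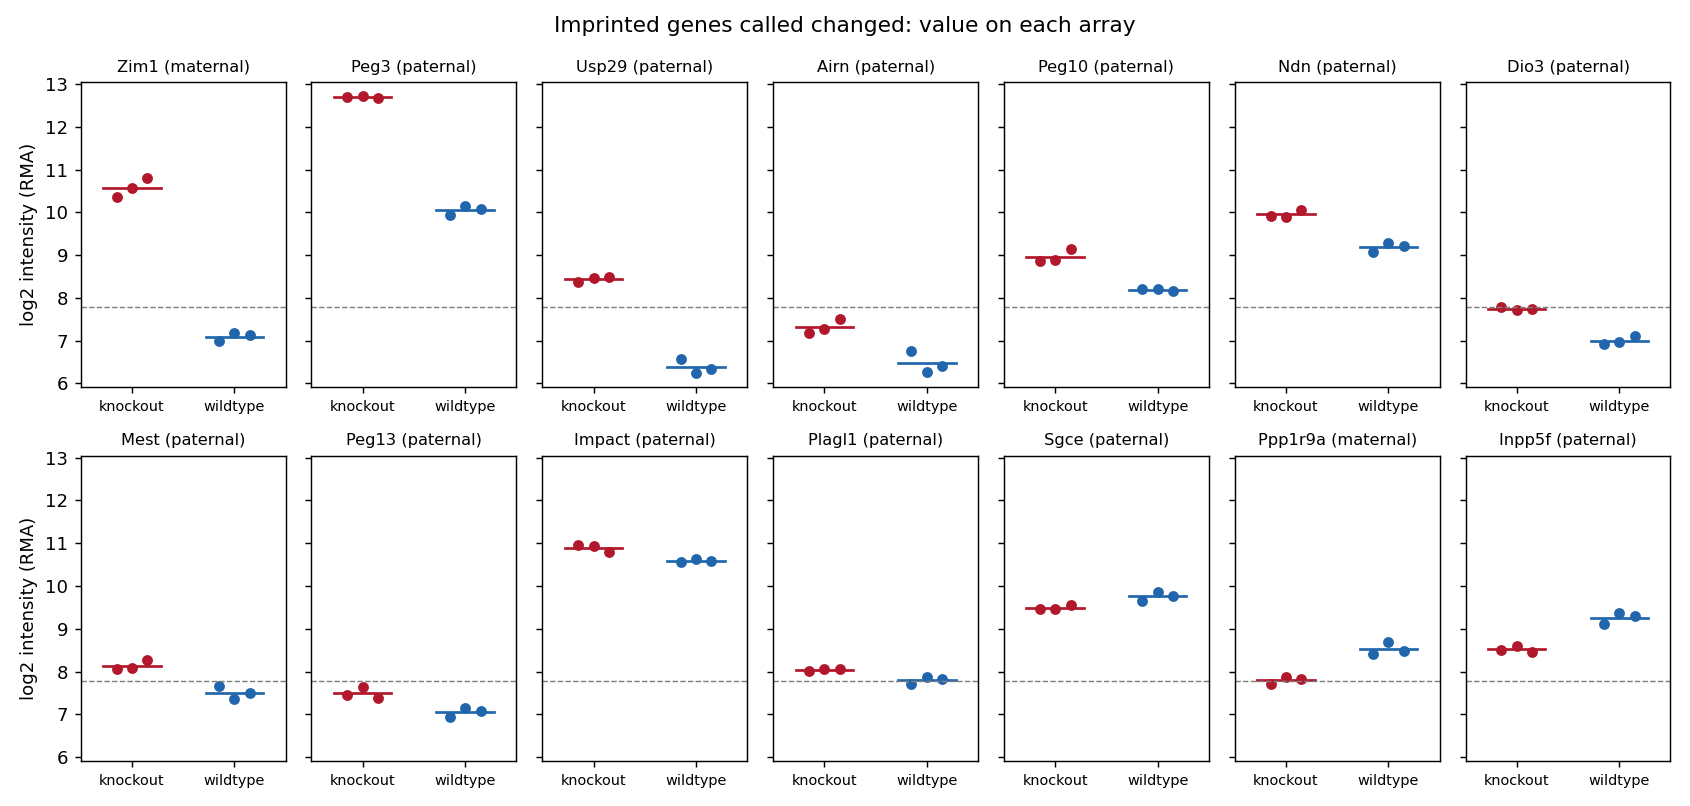
Log2 intensity of each of the 14 imprinted genes past the test, 1 panel per gene, with the 3 knockout arrays left of the 3 wildtype arrays; points are arrays, bars are group means, and the dashed line at 7.78 is the upper edge of the background range. The arrays of the groups lie apart in every panel, by most for Zim1, Peg3 and Usp29.

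Over the whole list, 14 of 43 genes (32.6%) passed at a Benjamini-Hochberg adjusted p under 0.05 in limma's test over all 30702 genes, 11 higher and 3 lower in knockout. Of all genes, 12.0% passed, 5.05% higher and 6.9% lower. Among the 11391 genes brighter than the background range the share was 23.5%, with 10.1% higher and 13.5% lower. The imprinted genes included 23 with a mean above that range, of which 10 passed, and 20 within it, of which 4 passed. A difference of at least 2-fold was reached by 3 genes, those of the Peg3 domain, and by 1.67% of all genes. The arrays of the groups did not overlap for 18 of the 43, against 27.4% of all genes, and 4 of these 18 (Cd81, Osbpl5, Igf2r and Mkrn3) did not pass. The median log2 difference was 0.05 over the 43 and 0.01 over all genes. The imprinted genes and the companion lists below were chosen with earlier results of these data known. Their shares beside those of all genes are therefore descriptive only.

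Sorted by parental copy, the 22 measured genes of the paternal copy included 10 that rose, 2 that fell and 10 that did not pass, with a median log2 difference of 0.13. The 20 of the maternal copy included 1 that rose, Zim1, 1 that fell, Ppp1r9a, and 18 that did not pass, with a median of 0.01. The share that passed was 54.5% for the paternal copy and 10% for the maternal copy, against 12.0% of all genes. With a mean above the background range, 8 of 9 paternal copy genes and 2 of 13 maternal copy genes passed. Of all genes that bright, 23.5% passed. The calls of Airn, Sgce, Plagl1, Impact and Peg13, all paternal copy genes, were each lost under some alternative fits. Sgce, Plagl1 and Impact are among the 8 bright ones that passed. The maternal copy calls, of Zim1 and Ppp1r9a, held under every alternative fit that tested them. The differences between these counts and shares were not tested. The parental copy is background from mouse tissues and was not measured in these cells. For some of these genes, such as Ube3a, Ppp1r9a and Inpp5f, it is known only for certain tissues or transcripts. Genes of a domain often share a control region, so the counts are not of independent genes. The paternal copy genes that rose were Peg3, Usp29, Airn, Dio3, Mest, Peg10, Plagl1, Ndn, Impact and Peg13, and those that fell were Sgce and Inpp5f. The Peg3 domain holds genes of both copies and the 3 listed rose, whereas in the Peg10-Sgce domain Peg10 rose, and Sgce and Ppp1r9a fell.

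**Figure D2:**
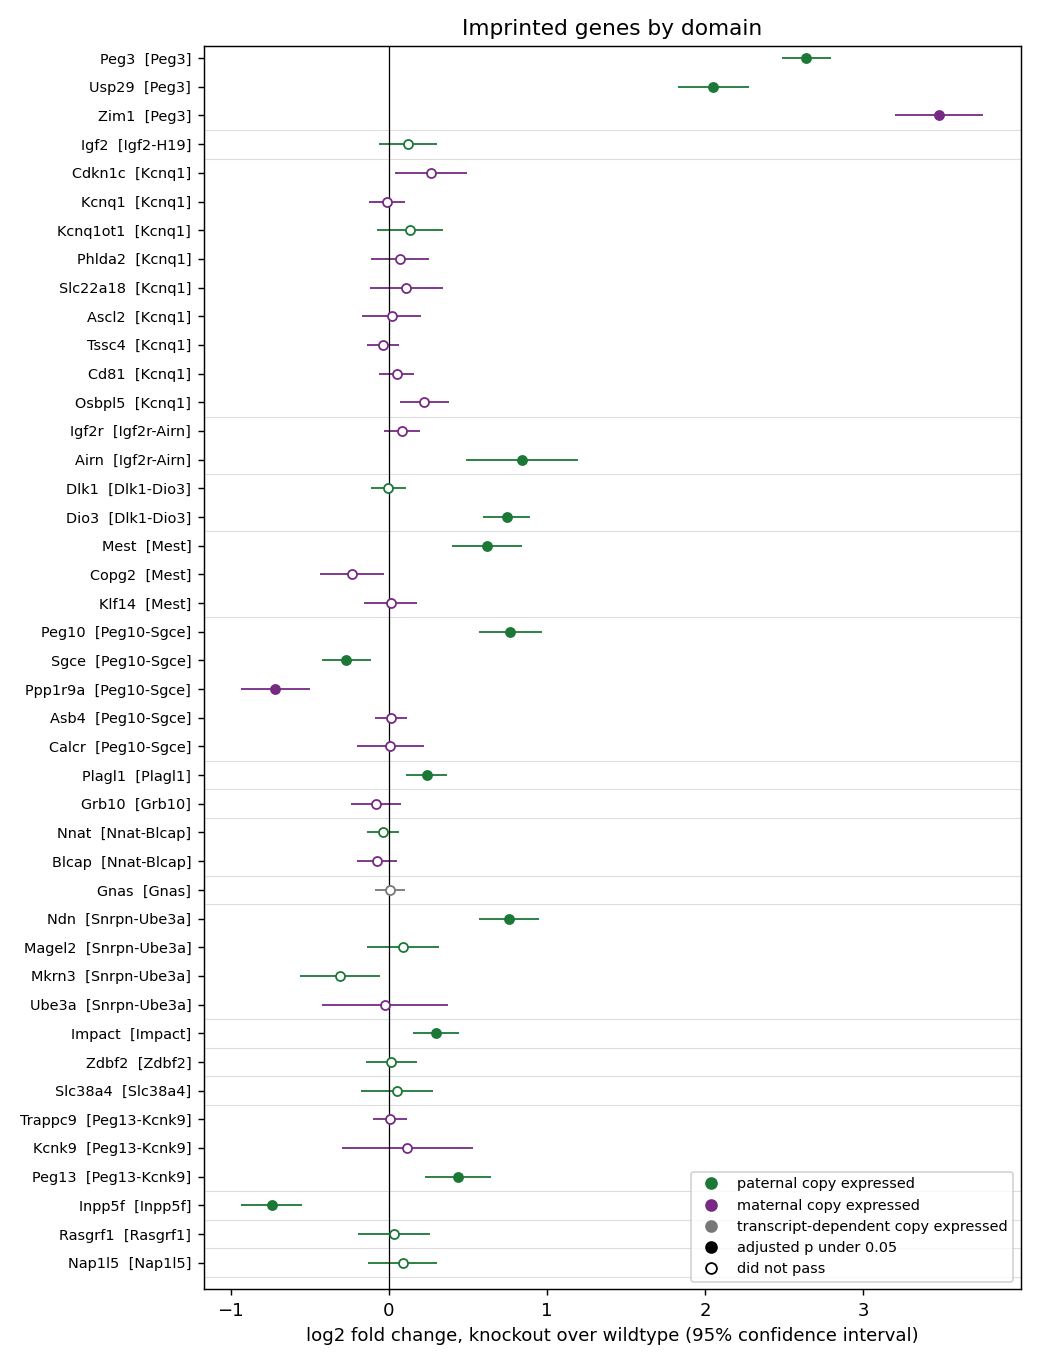
Log2 fold change of knockout over wildtype for the 43 measured imprinted genes, grouped by domain, with 95% intervals from limma; colour marks the expressed parental copy and filled points passed the test. The Peg3 domain stands at the top of the range with values from 2.05 to 3.48, and the 9 genes of the Kcnq1 domain lie between -0.04 and 0.27.

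The other paternally expressed genes that rose did so by less than 2-fold. Ndn encodes necdin, a growth-restraining protein of postmitotic neurons, and lies in the Prader-Willi region of chromosome 7. Its log2 intensities were 9.90, 9.89 and 10.05 in knockout cells, against 9.06, 9.29 and 9.22 in wildtype cells. The groups lay apart at a bright level, with a log2 fold change of 0.76 (SE 0.08, 95% interval 0.57 to 0.95, limma adjusted p = 0.00175), or 1.69-fold. Its neighbours in the domain did not pass. Magel2, encoding a ubiquitin ligase partner, differed by 0.09 (adjusted p = 0.723) within the background range. Mkrn3, which encodes a ubiquitin ligase known for restraining the onset of puberty, had 6.68, 6.77 and 6.43 in knockout cells and 6.81, 7.04 and 6.95 in wildtype cells. Its groups did not overlap, but its log2 difference of -0.31 did not pass (limma adjusted p = 0.134) and lay within the background range. Ube3a, the ubiquitin ligase gene of Angelman syndrome, is expressed from the maternal copy in neurons. It had 9.58, 9.63 and 9.08 in knockout cells and 9.26, 9.58 and 9.53 in wildtype cells. These groups overlapped, and the log2 difference was -0.03 (95% interval -0.42 to 0.37, limma adjusted p = 0.973).

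Peg10, a gene derived from a retrotransposon and needed for the placenta, had 8.87, 8.87 and 9.14 in knockout cells, against 8.21, 8.22 and 8.15 in wildtype cells. The knockout arrays were all higher, with a log2 fold change of 0.77 (SE 0.08, 95% interval 0.57 to 0.97, limma adjusted p = 0.00205), or 1.7-fold. Sgce, the epsilon-sarcoglycan gene, lies head to head with Peg10 on chromosome 6 and is also expressed from the paternal copy, but it fell. It had 9.47, 9.47 and 9.55 in knockout cells, against 9.66, 9.86 and 9.77 in wildtype cells. All knockout arrays were lower, by a small margin, with a log2 fold change of -0.27 (SE 0.06, 95% interval -0.42 to -0.11, limma adjusted p = 0.0435). This call was lost without any 1 of the knockout arrays (adjusted p = 0.15, 0.141 and 0.078 without replicates 1, 2 and 3), without wildtype replicate 2 (0.0769) or 3 (0.154), with the replicate number as a block (0.0576) and after the chromosome medians were taken off (log2 fold change -0.20, adjusted p = 0.0911).

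Ppp1r9a encodes neurabin-1, which binds actin filaments and protein phosphatase 1. It lies in the same domain, is expressed from the maternal copy in some tissues, and fell as well. It had 7.71, 7.88 and 7.84 in knockout cells, against 8.41, 8.70 and 8.47 in wildtype cells. The groups lay apart, with a log2 fold change of -0.72 (SE 0.09, 95% interval -0.93 to -0.50, limma adjusted p = 0.00375), a level 0.608 of that in wildtype. Asb4 and Calcr, an ankyrin repeat protein gene and the calcitonin receptor gene, are the remaining listed genes there. They differed by 0.02 and 0.01 (adjusted p = 0.919 and 0.983) within the background range. Lower values were not limited to imprinted genes in this stretch. Casd1, Pon2 and Pon3, further genes reported as imprinted there, fell by 0.75, 0.26 and 0.97 on the log2 scale, and 2 of the 6 genes flanking the domain, Samd9l and Pdk4, fell by 1.22 and 0.89. The Pon2 call was lost under 7 of the alternatives (adjusted p up to 0.124). The median over the protein-coding genes of chromosome 6 brighter than the median of all genes was -0.07.

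Dio3, which encodes the deiodinase that inactivates thyroid hormone, lies at the far end of the Dlk1-Dio3 domain of chromosome 12. It had 7.79, 7.72 and 7.73 in knockout cells, against 6.92, 6.97 and 7.11 in wildtype cells. The groups lay well apart, but both means were within the background range. The log2 fold change was 0.74 (SE 0.06, 95% interval 0.60 to 0.89, limma adjusted p = 0.000707) and kept its call at 0.70 to 0.80 under every alternative fit that tested it. Dlk1, a membrane protein gene of the Notch ligand family at the other end of the domain, differed by 0.00 (95% interval -0.12 to 0.11, limma adjusted p = 0.988), also within the background range. The maternally expressed noncoding RNAs of this domain were not read on probe sets of their own. Of its microRNA genes and those of the other domains, 45 of 59 listed were measured, with 40 within the background range. In limma's test 1 fell and 0 rose, and 2 had an unadjusted p under 0.05. The share past the test was 2.22%, against 12.0% of all genes. These shares are not alike, since most of the microRNA genes were within the background range and brighter genes passed more often (23.5%).

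The microRNA gene that fell was Mir344, in the Prader-Willi region, with 6.34, 6.46 and 6.27 in knockout cells, against 6.95, 7.42 and 7.17 in wildtype cells. The groups lay apart within the background range, with a log2 fold change of -0.82 (limma SE 0.12, adjusted p = 0.0069). The mature products of this hairpin are given since it was the only microRNA gene past the test. The seed, bases 2 to 8, which pairs with target messages, is in capitals. The sequences are from RefSeq, at chr7:61877782-61877804 for the 3p arm and chr7:61877819-61877844 for the 5p arm, both on the minus strand of build GRCm38.p6.
mmu-miR-344-3p: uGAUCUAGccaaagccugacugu
mmu-miR-344-5p: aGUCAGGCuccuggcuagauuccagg

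The array reads the primary transcript and cannot separate these arms, whose seeds differ.

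Mest, an enzyme gene of the hydrolase family known from mesoderm, had 8.06, 8.08 and 8.26 in knockout cells, against 7.66, 7.37 and 7.50 in wildtype cells. The knockout arrays were all higher, and the wildtype mean was within the background range. The log2 fold change was 0.62 (SE 0.09, 95% interval 0.40 to 0.84, limma adjusted p = 0.00696), or 1.54-fold. Copg2, a coat protein gene whose end overlaps transcripts of Mest on the other strand, is expressed from the maternal copy and had 9.54, 9.60 and 9.77 in knockout cells, against 9.75, 9.96 and 9.91 in wildtype cells. Its groups overlapped slightly, and its log2 difference of -0.24 missed the threshold (limma adjusted p = 0.15), except after a further quantile normalization (adjusted p = 0.0373). Klf14, a maternally expressed transcription factor gene beside them, differed by 0.01 (adjusted p = 0.972) within the background range. None of the 6 genes flanking the domain passed the test.

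Airn, the paternally expressed noncoding RNA that silences Igf2r in cis by antisense transcription, had 7.18, 7.28 and 7.50 in knockout cells, against 6.77, 6.26 and 6.40 in wildtype cells. The groups lay apart, but every value was within the background range. The log2 fold change was 0.84 (SE 0.15, 95% interval 0.49 to 1.20, limma adjusted p = 0.0136), or 1.8-fold. The call was lost without knockout replicate 2 (adjusted p = 0.0561) or 3 (0.0509) and without wildtype replicate 2 (0.0511) or 3 (0.0696). Igf2r, the receptor that clears IGF2, is expressed from the maternal copy and had 9.69, 9.64 and 9.75 in knockout cells, against 9.60, 9.64 and 9.60 in wildtype cells. The groups came close without overlap, and the log2 difference of 0.08 did not pass (95% interval -0.03 to 0.20, limma adjusted p = 0.4). Whether Airn probes keep to its own strand was not tested, so transcripts of overlapping genes could add to its value, as for Kcnq1ot1 in Kcnq1 and Nnat in Blcap.

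Inpp5f encodes a phosphoinositide phosphatase, of which a brain transcript is known to come from the paternal copy, while the probe set is not assigned to a transcript. It had 8.51, 8.60 and 8.45 in knockout cells, against 9.11, 9.37 and 9.30 in wildtype cells. All knockout arrays were lower, with a log2 fold change of -0.74 (SE 0.08, 95% interval -0.93 to -0.55, limma adjusted p = 0.00209), a level 0.599 of that in wildtype. Of 6 neighbours, 3 rose, namely Rgs10, a regulator of G protein signalling, Bag3, a co-chaperone, and Sec23ip, a membrane transport gene. Their log2 fold changes were 0.71, 0.33 and 0.50 (limma adjusted p = 0.00381, 0.0315 and 0.00517), and all 6 neighbours had differences above 0. The Bag3 call was lost without any 1 of the 6 arrays (adjusted p up to 0.122).

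Impact, Plagl1 and Peg13 rose by small amounts. Impact, which encodes a restrainer of the GCN2 stress kinase, had 10.95, 10.94 and 10.78 in knockout cells, against 10.57, 10.63 and 10.58 in wildtype cells. The groups lay apart with a log2 fold change of 0.30 (limma SE 0.06, adjusted p = 0.0227). The call was lost without knockout replicate 1 or 2 (adjusted p = 0.0949 and 0.0923), without any 1 wildtype array (0.0672, 0.0502 and 0.101 without replicates 1, 2 and 3) and after a further quantile normalization (0.26, adjusted p = 0.0724). Of its 6 neighbours on chromosome 18, 3 fell (Osbpl1a by 0.34, Zfp521 by 0.48 and Ss18 by 0.37) and 3 did not pass. The chromosome median, over protein-coding genes brighter than the median of all genes, was -0.14. Zfp521 was within the background range in both groups. The Osbpl1a call was lost under 5 alternatives (adjusted p up to 0.108).

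Plagl1, a zinc finger transcription factor gene that acts on other growth genes, had 8.01, 8.05 and 8.05 in knockout cells, against 7.72, 7.87 and 7.82 in wildtype cells. The arrays lay apart by a narrow margin, with a log2 fold change of 0.24 (limma SE 0.05, adjusted p = 0.0371). The call was lost without any 1 knockout array (adjusted p = 0.102, 0.125 and 0.106 without replicates 1, 2 and 3), without wildtype replicate 3 (0.126) and with the replicate number as a block (0.0574). Of the 6 genes beside it, 3 fell, Utrn by 0.28, Stx11 by 0.46 and Phactr2 by 0.52, the Utrn call being lost under 4 alternatives (adjusted p up to 0.0733). Peg13, a noncoding RNA within an intron of Trappc9, had 7.44, 7.65 and 7.39 in knockout cells, against 6.95, 7.14 and 7.09 in wildtype cells. These groups lay apart within the background range, with a log2 fold change of 0.44 (limma SE 0.09, adjusted p = 0.0218). The call was lost without knockout replicate 1 or 2 (adjusted p = 0.0701 and 0.056) and without wildtype replicate 1 or 3 (0.0696 and 0.0819). Trappc9, a trafficking complex gene, had 8.51 on all 3 knockout arrays and 8.51, 8.55 and 8.46 in wildtype cells, a log2 difference of 0.01 (adjusted p = 0.978). Kcnk9, a potassium channel gene of the same domain, differed by 0.12 (adjusted p = 0.816) with overlapping groups within the background range.

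**Figure D3:**
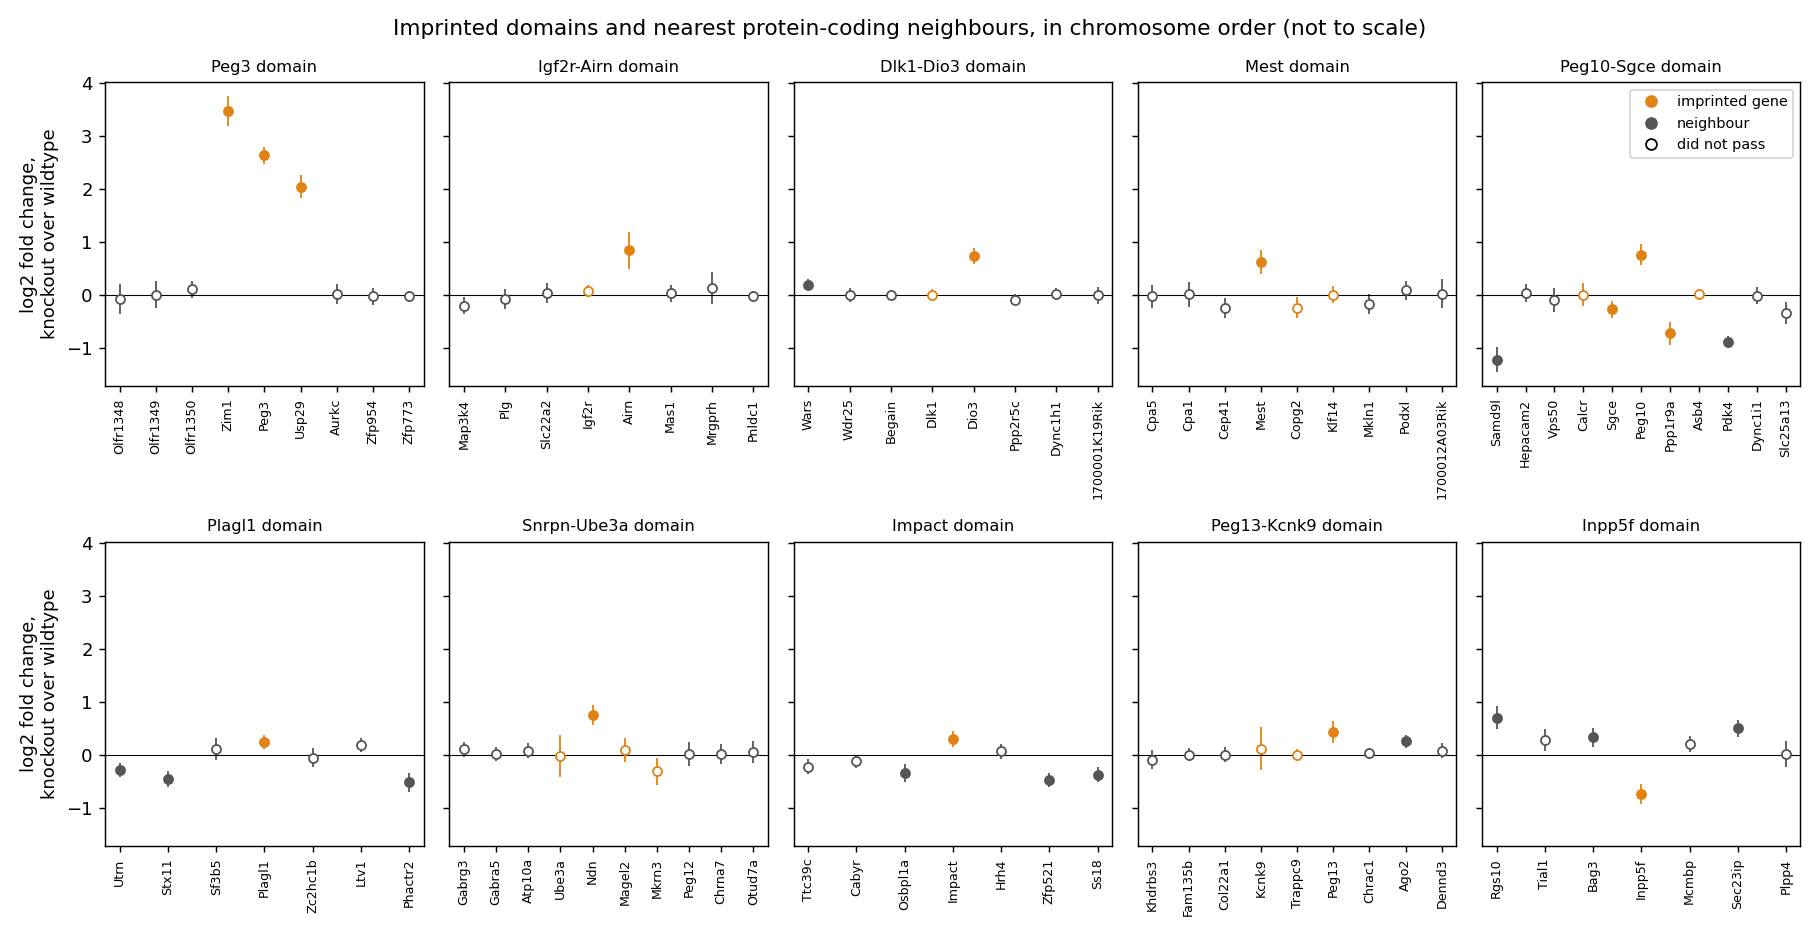
Log2 fold change of knockout over wildtype along each of the 10 domains that hold an imprinted gene past the test, in gene order, with 3 protein-coding neighbours on each side; imprinted genes and neighbours have different colours, filled points passed the test and bars are 95% intervals. The neighbours of the Peg3 domain lie between -0.07 and 0.11, and all 6 neighbours of Inpp5f lie above 0 while Inpp5f itself is at -0.74.

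Over the 10 domains with a gene past the test, 60 neighbours were measured, of which 5 rose, 8 fell and 47 did not pass, with a median log2 difference of 0.01. Of the 13 that passed, 8 kept the call under every alternative fit that tested them. The share that passed was 21.7%, against 12.0% of all genes and 23.5% of those brighter than the background range. Some neighbours are themselves reported as imprinted in certain tissues (Slc22a2, Begain, Phactr2, Ago2, Chrac1, Atp10a and Peg12) and stand on the list of other imprinted genes.

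None of the 9 listed genes of the Kcnq1 domain on chromosome 7 passed limma's test, although 2 of them, Cdkn1c and Osbpl5, had an unadjusted p under 0.05. Their log2 differences ran from -0.04 to 0.27 with a median of 0.07, and the 95% intervals from -0.17 to 0.49. Kcnq1, Phlda2 and Ascl2 were within the background range in both groups, where an interval does not bound the change in RNA. Cdkn1c encodes p57, the cyclin-dependent kinase inhibitor that podocytes express as they leave the cell cycle, and is expressed from the maternal copy. It had 8.23, 8.23 and 8.10 in knockout cells, against 8.12, 7.84 and 7.80 in wildtype cells. The groups overlapped through wildtype replicate 1, and the log2 difference of 0.27 (95% interval 0.04 to 0.49, limma adjusted p = 0.143) passed only without that array (0.36, adjusted p = 0.0224). Osbpl5, a lipid transfer protein gene, had 8.79, 8.81 and 8.95 in knockout cells, against 8.71, 8.61 and 8.57 in wildtype cells. Its groups lay apart, and its difference of 0.22 missed the threshold (limma adjusted p = 0.0817), except with dim genes left out (adjusted p = 0.0359).

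Kcnq1ot1, the paternally expressed noncoding RNA that silences this domain, had 8.48, 8.57 and 8.60 in knockout cells, against 8.25, 8.56 and 8.44 in wildtype cells. These overlapped, with a log2 difference of 0.13 (limma adjusted p = 0.474). Cd81, a tetraspanin gene and a very bright one, had 13.26, 13.26 and 13.34 in knockout cells, against 13.24, 13.24 and 13.23 in wildtype cells. The arrays of the groups were nearly level, at a difference of 0.05 (adjusted p = 0.661). The potassium channel gene Kcnq1, the placental growth restrainer Phlda2, the transporter gene Slc22a18, the trophoblast factor Ascl2 and the U5 snRNP-linked Tssc4 lay between -0.04 and 0.11. Tssc4 had 7.79, 7.74 and 7.79 in knockout cells and 7.83, 7.80 and 7.79 in wildtype cells. Slc22a18 had 7.89, 7.77 and 7.90 in knockout cells and 7.91, 7.56 and 7.75 in wildtype cells. Both pairs of groups overlapped near the upper edge of the background range.

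Among the single genes, Grb10, an adaptor that damps insulin and IGF signalling, had 9.85, 9.90 and 9.69 in knockout cells and 9.85, 9.91 and 9.91 in wildtype cells. The groups overlapped, with a log2 difference of -0.08 (95% interval -0.24 to 0.08, limma adjusted p = 0.607). Blcap, in whose intron the paternally expressed Nnat lies, had 8.57, 8.56 and 8.56 in knockout cells and 8.71, 8.63 and 8.56 in wildtype cells, a log2 difference of -0.07 (adjusted p = 0.532). Gnas, the stimulatory G protein alpha gene, had 8.74, 8.74 and 8.76 in knockout cells and 8.74 on all 3 wildtype arrays, a log2 difference of 0.01 (adjusted p = 0.963). None of these 3 genes separated the groups. Igf2, the fetal growth factor gene, had 7.35, 7.35 and 7.39 in knockout cells and 7.35, 7.09 and 7.29 in wildtype cells, all within the background range, a log2 difference of 0.12 (adjusted p = 0.447). Nnat, Zdbf2, Slc38a4, Rasgrf1 and Nap1l5, which are paternally expressed genes of brain or placenta, differed by -0.04 to 0.09 within the background range. Over the 29 genes that did not pass, differences ran from -0.31 to 0.27 and the 95% intervals from -0.56 to 0.53.

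Factors that place, read or protect imprints were measured alongside. Of 27 measured (28 listed), 3 rose, 2 fell and 22 did not pass, with a median log2 difference of -0.03. The share that passed was 18.5%, against 12.0% of all genes and 23.5% of those brighter than the background range. Zfp57, the zinc finger protein that holds methylation at imprint control regions, rose by 0.44 (SE 0.05, limma adjusted p = 0.00239). It had 9.20 on all 3 knockout arrays against 8.72, 8.83 and 8.73 in wildtype cells. The knockout values were nearly identical, which can understate the spread, and the fit without identical values did not leave Zfp57 out. Trim28, the corepressor that ZFP57 recruits, rose by 0.35 (adjusted p = 0.0156), a call lost without knockout replicate 1 (0.0709) or wildtype replicate 3 (0.0788). The de novo methyltransferase genes went opposite ways. Dnmt3a fell by 0.32 (SE 0.04, adjusted p = 0.00433), with 8.25, 8.25 and 8.24 in knockout cells against 8.58, 8.58 and 8.53 in wildtype cells. Dnmt3b rose by 0.32 (adjusted p = 0.0411) within the background range, and Suz12, a subunit of Polycomb complex PRC2, fell by 0.47 (adjusted p = 0.0266). The Dnmt3b and Suz12 calls were each lost under several alternatives (adjusted p up to 0.134 and 0.116). Dnmt1, the maintenance methyltransferase gene, differed by 0.13 (adjusted p = 0.177), its partner Uhrf1 by -0.03 (0.857), Ctcf, the insulator factor, by -0.06 (0.702) and Zfp445, another imprint-protecting zinc finger gene, by -0.19 (0.523).

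A list of 42 other genes reported as imprinted in the mouse had 38 measured. Of these, 7 rose, 7 fell and 24 did not pass, with a median log2 difference of 0.02. The share past the test was 36.8%, against 12.0% of all genes and 23.5% of those brighter than the background range. This list too was chosen with earlier results of these data known, so the shares are descriptive only. Dcn, the collagen-binding proteoglycan decorin, which is imprinted in the placenta, had the largest difference, with 10.76 ± 0.08 in knockout and 6.43 ± 0.08 in wildtype cells (SD, n = 3 each). Its log2 fold change was 4.33 (limma SE 0.07, adjusted p = 1.63e-06), and it also stands on the fibroblast marker list below. Cntn3, a neural adhesion molecule gene, rose by 2.53 (adjusted p = 3.43e-05), Tnfrsf23, a decoy receptor gene beside the Kcnq1 domain genes but not among the 9 listed, by 1.10 (0.000325) and Gatm, the creatine synthesis enzyme gene, by 0.87 (0.00178). Sfmbt2, a Polycomb-linked gene of the placenta, fell by 1.23 (0.00035) and the paraoxonase gene Pon3 by 0.97 (0.000611). The wildtype values of Dcn and Cntn3 and the knockout values of Sfmbt2 were within the background range. These 6 calls held under every alternative fit that tested them, as did those of Casd1, Cobl and Phactr2.

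Genes of insulin-like growth factor signalling, on which Igf2, Igf2r and Grb10 act, passed the test only outside the 43 imprinted genes. Of 12 measured (15 listed), 4 rose, 1 fell and 7 did not pass, with a median log2 difference of 0.10. The share that passed was 41.7%, against 12.0% of all genes and 23.5% of those brighter than the background range. As the list was chosen with earlier results of these data known, these shares are descriptive only. Igf1, the ligand gene that is not imprinted, rose by 1.13 (SE 0.08, limma adjusted p = 0.000325), with 8.33, 8.46 and 8.60 in knockout cells against 7.29, 7.37 and 7.34 in wildtype cells, where the wildtype arrays were within the background range. Irs1, the docking protein gene below the receptor, rose by 1.38 (adjusted p = 0.00022), and Hmga2, a chromatin protein gene that raises Igf2bp2, by 1.32 (0.000178). The receptor gene Igf1r rose by 0.35 (0.0138), a call lost without knockout replicate 1 (0.0578) or wildtype replicate 3 (0.0714). Igf2bp3, which encodes an mRNA-binding protein of Igf2, fell by 0.38 (0.00892) within the background range, and missed the threshold without wildtype replicate 3 (0.0518).

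The labels were checked on the same arrays. Nck1 had 8.13, 8.17 and 8.06 in knockout cells, against 8.54, 8.74 and 8.62 in wildtype cells, a log2 fold change of -0.51 (limma adjusted p = 0.00391), and Nck2 one of -0.24 within the background range (adjusted p = 0.0941). The labels do not say where the probes lie relative to the deleted parts. Xist, transcribed from an inactive X chromosome, was at 6.01 ± 0.05 in knockout and 12.19 ± 0.04 in wildtype cells, while the Y-linked Uty was at 9.90 ± 0.07 in knockout and 5.21 ± 0.14 in wildtype cells (SD, n = 3 each). This is the pattern of female wildtype cells and male knockout cells, so the wildtype cells cannot be taken as the parent line of the knockout cells. Genotype, line and the sex chromosomes of the line therefore cannot be told apart. Array medians were 6.73 to 6.81, and correlations over genes were 0.993 to 0.997 within groups and 0.978 to 0.985 between them.

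Some cell type markers passed the test as well, as did 12.0% of all genes. Of the podocyte markers, 0 of 4 measured passed limma's test and 0 had an unadjusted p under 0.05, with a mean log2 level of 7.84 to 7.88 in knockout and 7.83 to 7.87 in wildtype cells, and 2 defining markers, Nphs1 and Wt1, stayed within the background range in either group. Of the fibroblast and mesangial markers, 3 of 5 rose (Dcn by 4.33, Col1a1 by 3.03 and Pdgfrb by 2.36), with a list mean of 8.62 to 8.76 in knockout and 6.62 to 6.74 in wildtype cells. Of the proximal tubule markers, 3 of 5 fell (Aqp1 by 3.50, Cubn by 0.56 and Lrp2 by 0.36), with a list mean of 8.49 to 8.54 in knockout and 9.35 to 9.40 in wildtype cells. Cubn, and Slc34a1 and Slc5a2 which did not pass, were within the background range in both groups. Of the parietal epithelium markers, 2 of 3 fell (Cldn1 by 0.87 and Pax8 by 0.73), the list mean being 9.28 to 9.30 in knockout and 9.78 to 9.85 in wildtype cells. The 5 endothelial markers were all within the background range, and of 4 leukocyte markers Cd68 rose by 0.57, a call lost under 5 alternatives (adjusted p up to 0.173), and Csf1r fell by 1.21. Their part in the differences of the imprinted genes was not tested. In RNA from whole cultures, fewer cells of a type and less RNA per cell cannot be told apart.

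The promoter windows of the other genes past the test varied widely in CG content. RefSeq windows were found for 34 of the 43 measured genes, 51 windows in all, and for 10 of the 14 that passed. Listed genes without a value were not looked up. A gene's richest window held 20.5 CG dinucleotides in the median over the 34, from 2 to 48. Airn had 3, Ndn 11, Inpp5f 15, Mest 17, Dio3 25, Plagl1 26 and Ppp1r9a 48. Among these 51 windows, TGACGTCA occurred in 1 further window, of Zdbf2, whose log2 difference was 0.01, and ATGGCG in 5 windows.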

How the data were processed

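Each array has a column of deposited log2 intensities. Per the submitters' processing notes, the authors used RMA and affy 1.44.0. RMA corrects background, quantile-normalizes and summarises probes, and no scanner files or detection calls were used. Of 72688 probe sets, 186 were controls, 31258 named 1 gene and 1492 named several, which were not used by name. A further 39938, controls included, had no entry in the platform annotation. Symbols were updated through a reference table of GRCm38.p6, which changed 1199. The brightest probe set was kept for each of 441 genes with several, leaving 30702 genes, of which 19311 (62.9%) were within the background range (means of the background probe sets 2.33 to 7.78). RMA can give arrays identical values, which understates the spread.

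Knockout arrays were set against wildtype arrays in limma 3.58.1 under R 4.3.3 (lmFit, eBayes, two-sided, no covariate), adjusted by Benjamini-Hochberg over all genes at 0.05. Over all genes 1551 were higher and 2118 lower, and after chromosome medians were taken off 2110 and 1783. Means carry the SD over 3 arrays, and fold changes the moderated standard error. Named were all listed genes measured, at most the 6 largest called changes of each companion list, and the 3 nearest measured protein-coding genes on each side of a domain with a call. Pon2, Casd1, Cobl, Phactr2, Zim2, Zim3 and the imprint factors that did not pass were named after their values were seen. The imprinted genes and the lists were chosen with earlier results of these data known. Alternatives were leaving out each array, a replicate block, further quantile normalization, removal of chromosome medians, leaving out dim genes or genes with identical values, averaging probe sets, and a trended robust prior. Stricter limits on the adjusted p and the fold were counted apart from these fits. The scripts were tested on simulated data. Promoter windows and microRNAs came from RefSeq tables of GRCm38.p6. Python 3.11.15 with matplotlib 3.10.9 drew the figures.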

Additional observations from a re-analysis of the deposited data

How the results depend on the processing

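Of the 14 imprinted genes past the test, 9 kept direction and call under every alternative fit that tested them and 0 reversed, the stricter limits given below being counted apart. The exceptions were Airn, Sgce, Plagl1, Impact and Peg13. Of the 29 others, 3 passed somewhere and 14 turned sign. Leaving out 1 array gave 7 to 10 genes higher and 2 to 3 lower in knockout, against 11 and 3, and 2079 to 3388 genes called in all against 3669. Without knockout replicate 2 or wildtype replicate 3 there were 7 higher. An adjusted p under 0.01 left 1948 genes in all, and 7 imprinted genes higher. At least 2-fold in addition left 513 in all, 3 imprinted genes higher and 0 lower. With the replicate block, 3765 genes passed, 10 imprinted genes higher and 2 lower. Same-numbered arrays correlated in their deviations at 0.35, 0.28 and 0.04, and differently numbered arrays at -0.34 to 0.05. Whether the numbers pair the samples was not tested. After chromosome medians were taken off, log2 differences turned to -0.0065 for Ascl2, 0.018 for Dlk1, 0.022 for Grb10, -0.039 for Slc38a4, -0.084 for Trappc9 and -0.0092 for Zim3. After quantile normalization they turned to -0.026 for Klf14, -0.024 for Asb4, -0.019 for Calcr, -0.027 for Zdbf2, -0.0071 for Zim2 and -0.028 for Zim3. Leaving out 1 array moved these differences across 0: Kcnq1 (-0.036 to 0.019), Phlda2 (-0.0057 to 0.11), Ascl2 (-0.049 to 0.071), Dlk1 (-0.021 to 0.023), Klf14 (-0.037 to 0.064), Asb4 (-0.0018 to 0.025), Calcr (-0.074 to 0.10), Ube3a (-0.13 to 0.15), Zdbf2 (-0.047 to 0.069), Slc38a4 (-0.048 to 0.13), Trappc9 (-0.017 to 0.026), Kcnk9 (-0.077 to 0.22), Rasgrf1 (-0.066 to 0.12), Zim2 (-0.024 to 0.070) and Zim3 (-0.026 to 0.057). The causes were not tested. With dim genes left out, 8 were higher, since Usp29, Airn, Dio3 and Peg13 were then not tested and Osbpl5 passed. Of the companion lists' calls, 2 of 5 imprint factors, 9 of 14 other imprinted genes and 3 of 5 growth factor signalling genes held under every alternative fit that tested them. Dim signal limits Airn, Dio3, Peg13 and the wildtype values of Usp29, Zim1 and Mest.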
